A study of Mus musculus with 2 samples.

Results

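The distal miRNA cluster of the imprinted Dlk1-Dio3 domain, known as miR-379 to miR-410, was described in the left cerebral cortex of aged mice. Its members were taken by position: all plus-strand microRNA (miRNA) genes that GENCODE M21 places in the distal stretch of the domain on chromosome 12 (mm10), with or without reads. This gave 39 of the 2202 annotated miRNA genes, from Mir379 (chr12:109709060-109709125) to Mir3072 (chr12:109747878-109747960), a span of 38.9 kb. Mir3072 lies beyond Mir410 (chr12:109743715-109743795), so the list runs past the cluster's usual name, and it includes Gm27379, a predicted gene without an miRNA name. The tissue came from B6CASTF1/J mice, the first-generation hybrid of C57BL/6J and CAST/EiJ, 18 to 20 months of age and untreated as far as the labels say. RNA shorter than 30 nt was sequenced in 2 libraries, biological replicates 1 and 2 of the only group. Their tissue records name 1 shared donor record, so differences between them may be technical, and all p-values below refer to these 2 libraries alone. The fields for sex disagree (male in the sample fields, female in the free text), and sex was not used.

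The Dlk1-Dio3 domain is imprinted. Its protein-coding genes Dlk1, Rtl1 and Dio3 are expressed from the paternal chromosome, while its long noncoding RNAs (Meg3, Rian and Mirg) and its miRNAs come from the maternal chromosome. A miRNA is cut from a hairpin in a longer transcript, and bases 2 to 8 of the mature strand, the seed, pair with target mRNAs. In neurons the distal cluster is known as a large set of miRNAs that is induced by activity through the transcription factor Mef2 and takes part in dendrite growth and spine shape. The best known member is miR-134, which restrains the spine kinase Limk1.

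The mature sequences show how the members relate to each other. RefSeq (GRCm38.p6) lists 71 mature strands for 38 of the 39 members, matched by symbol, with both strands for 33 of them. The deposited counts are per hairpin and do not separate the 5p strand from the 3p strand. Of these strands, 6 seeds occur in more than 1 member, each in a pair, and none of the 6 occurs in a listed miRNA outside the cluster. The strands of these pairs are printed 5′ to 3′ with the seed in capitals, because they are the listed strands that share predicted target pairing. Strands that are not listed, at Gm27379 and at the 5 members with 1 listed strand, were not compared. Further members that share a seed can therefore exist.
miR-379-3p: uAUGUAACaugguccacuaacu
miR-411-3p: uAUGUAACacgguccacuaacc
miR-379-5p: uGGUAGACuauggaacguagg
miR-1193-5p: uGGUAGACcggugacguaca
miR-376b-5p: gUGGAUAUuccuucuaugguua
miR-376c-5p: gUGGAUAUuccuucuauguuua
miR-453: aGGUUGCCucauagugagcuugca
miR-496a-5p: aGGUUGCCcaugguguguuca
miR-494-5p: aGGUUGUCcguguugucuucuc
miR-410-5p: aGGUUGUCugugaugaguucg
miR-758-5p: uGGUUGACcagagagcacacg
miR-1197-5p: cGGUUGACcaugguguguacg
Counted from the 5′ end, miR-411-3p differs from miR-379-3p by U10C and U22C, and miR-376b-5p differs from miR-376c-5p by U19G alone. The letters GGUU, a word chosen after the sequences were read and searched on the mature strand only, lie in the seeds of 13 of the 71 strands (18.3%), against 45 of all 1738 listed mouse strands (2.59%).

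Library depth sets how far low members can be read. Sense reads at miRNA genes numbered 2381663 in replicate 1 and 4436398 in replicate 2, and levels are given as CPM, a gene's reads scaled to this total. A locus with 0 reads could stand at up to 1.26 CPM in replicate 1 and 0.676 CPM in replicate 2, which covers counting error only. Reads that mapped to several places (35.6% and 44.8% of all reads) stand under no gene. Loci listed as markers of neurons and glia had reads. The 9 neuron loci, all with reads, summed to 86937 and 65670 CPM in replicates 1 and 2. Most are copies of the same miRNAs (Mir124a, Mir9 and Mir128), and reads that map to several copies are not in these sums. The astrocyte and endothelial lists hold 1 locus each, Mir29a with 22318 ± 5144 CPM and Mir126a with 17573 ± 800 CPM (SD, n = 2). A single locus does not identify a cell type. The oligodendrocyte and mural lists, of 2 loci each, summed to 4087 ± 836 and 8287 ± 3632 CPM. The remaining lists (myeloid, choroid plexus, erythroid, hepatocyte, muscle and embryonic stem cell) lay between 1.40 and 626 CPM. In the muscle list Mir1a-1 and Mir133a-1 had no read. Reads that map to several copies, such as Mir1a-1 and Mir1a-2, are missing from that sum too. In bulk tissue, fewer cells of a type and less RNA per cell cannot be told apart.

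Most members were detected. At least 1 read was found at 36 of 39 members (92.3%), against 33.1% of all annotated miRNA genes, and at least 10 reads in each library at 34 members (87.2%), against 16.7% of all genes. Mir654, Mir453 and Gm27379 had no read in either library. Mir1197 had 0 reads in replicate 1 and 3 in replicate 2, and Mir544 had 6 and 25. By mean level, 11 members stood at 1000 CPM or higher, 17 lay between 100 and 1000 CPM, and 8 lay below 100 CPM with reads.

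The cluster's reads were concentrated in a few hairpins. Mir411, the neighbour of Mir379, was the highest member, with 22653 reads (9511 CPM) in replicate 1 and 26339 reads (5937 CPM) in replicate 2. Mir382 followed with 7411 and 5690 CPM, then Mir487b with 6734 and 5118 CPM. These leading hairpins lie at different places of the cluster, and they stood in this order in both libraries. Mir379, whose 3p seed equals that of Mir411, was next in replicate 1, with 6387 and 4130 CPM. Mir541, from an intron of Mirg, had 3546 and 4827 CPM and was the only one of the 5 that was higher in replicate 2, where it stood above Mir379. The 5 together held 67.6% of the cluster's reads in replicate 1 and 59.9% in replicate 2, and the highest member stood 37.9-fold above the median member (204 CPM). Of 35 adjacent pairs in the order of mean levels, 16 had the same order in both libraries, and in 25 the ranges over the 2 libraries overlapped.

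**Figure D1:**
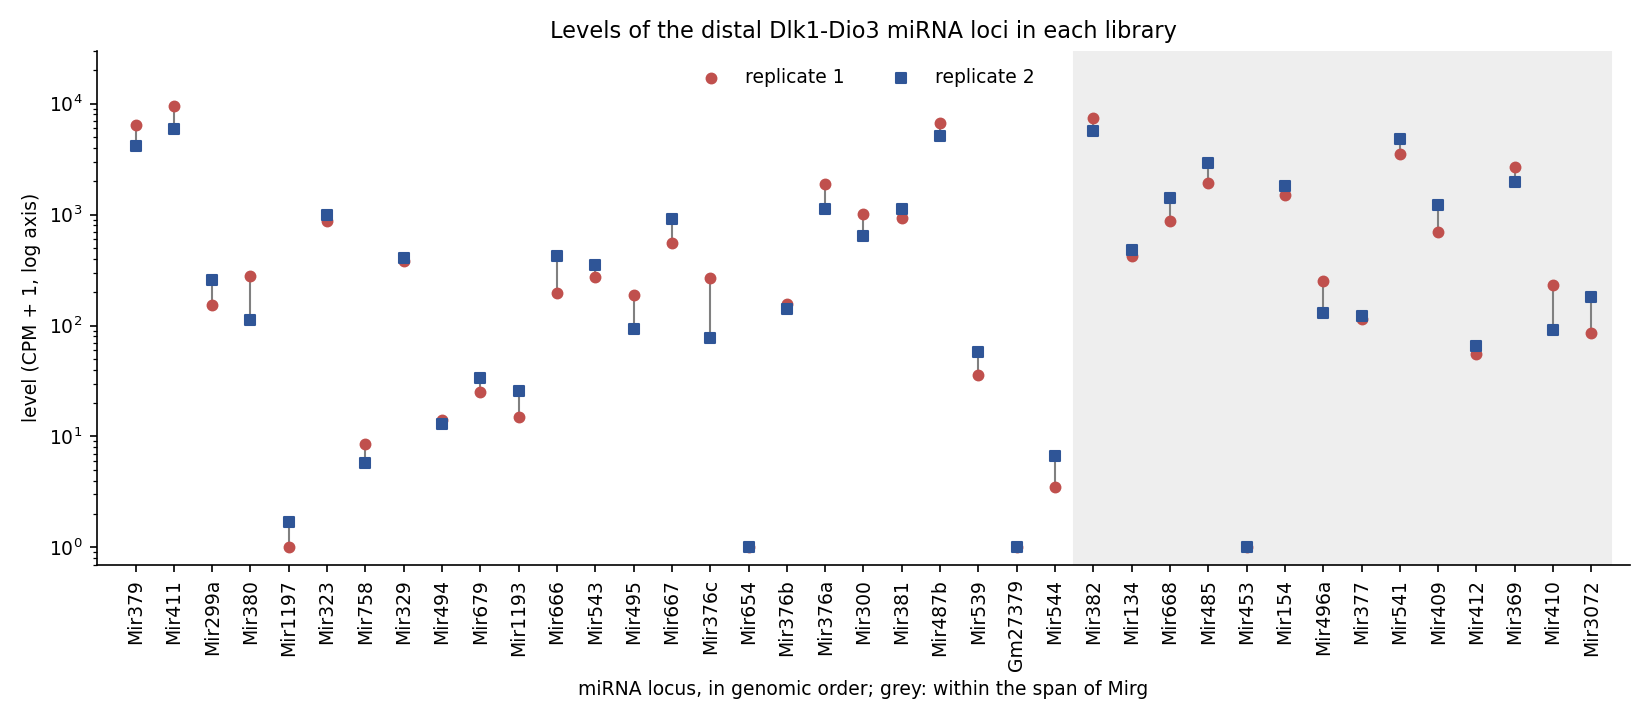
Level of each of the 39 members in genomic order, as CPM + 1 on a log axis, with a circle for replicate 1 and a square for replicate 2 joined by a line; the grey area marks the loci within Mirg. Mir411, Mir382, Mir487b, Mir379 and Mir541 stand highest, and high and low loci are mixed along the cluster.

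Members known from dendrites and spines differed in level from each other. Mir134 (chr12:109734139-109734209) had 419 CPM in replicate 1 and 481 in replicate 2, a mean of 450 ± 43.2 CPM (SD, n = 2), rank 16 of the members. Mir485, known for its control of the synaptic vesicle protein SV2A, had 1931 and 2943 CPM, a mean of 2437 ± 716 CPM. Mir485 was thus above Mir134 in both libraries, although both hairpins lie in exons of Mirg. Mir329 and Mir381, which with miR-134 are tied to activity-dependent dendrite growth, had 394 ± 19.8 and 1023 ± 145 CPM. Of the trio tied to N-cadherin in cortical neurogenesis, Mir369 stood at 2324 ± 519 CPM (2691 in replicate 1 and 1957 in replicate 2), Mir543 at 311 ± 54.0 CPM and Mir496a at 191 ± 86.2 CPM. The hairpin of Mir134 is printed with both mature strands in capitals (RefSeq, GRCm38.p6, plus strand), because this member is the one most studied in neurons.
Mir134: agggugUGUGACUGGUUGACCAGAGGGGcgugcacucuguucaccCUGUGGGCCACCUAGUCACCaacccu

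Among the other abundant members were Mir154, Mir376a, Mir668, Mir409 and Mir323. Mir154, after which a family of related hairpins of this cluster is named, had 1512 CPM in replicate 1 and 1813 in replicate 2. Mir668 had 873 and 1420 CPM, Mir409 had 697 and 1219 CPM, and Mir323 had 867 and 990 CPM. These were higher in replicate 2, whereas Mir376a, at 1893 and 1118 CPM, was higher in replicate 1.

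The miR-376 hairpins, whose transcripts are known to be edited from A to I by ADAR enzymes in brain, lie within about 1 kb and had unequal levels. Mir376a (chr12:109723781-109723848) held 4509 and 4958 reads in replicates 1 and 2. Mir376b had 372 and 618 reads, and Mir376c had 642 and 335 reads. Mir376a was thus the highest of the trio in both libraries, at 1505 ± 548 CPM against 148 ± 11.9 CPM for Mir376b and 173 ± 137 CPM for Mir376c. Mir376b and Mir376c each contain a word of 20 bases of the other, as do Mir411 and Mir758, and Mir376b shares such a word with Mir487b. Reads that lie within these shared stretches can map to several places and be left out of the gene counts of these 5 members. A listed mature strand lay within another hairpin, at up to 1 mismatch, only for Mir376b and Mir376c, so their levels are the most uncertain. For Mir411, Mir758 and Mir487b no listed mature strand did, though Mir487b has only 1 listed strand. The 5 members held 33.6% and 26.3% of the cluster's reads. The strands of Mir376a and the 3p strand of Mir376b are shown to compare them, with seeds in capitals.
miR-376a-5p: gGUAGAUUcuccuucuaugagu
miR-376a-3p: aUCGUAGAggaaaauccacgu
miR-376b-3p: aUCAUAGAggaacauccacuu
From the 5′ end, miR-376a-3p differs from miR-376b-3p by A4G, C13A and U20G, the first of these inside the seed.

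Grouped by shared seed, the hairpins of Mir379 and Mir411 summed to 15898 CPM in replicate 1 and 10067 in replicate 2. Each hairpin was also counted for its other strand, and reads of the hairpins that share sequence can be missing, so such a sum is not the level of the seed itself. Mir379 and Mir1193 (seed GGUAGAC) summed to 5278 ± 1588 CPM, of which Mir1193 gave 13.9 CPM in replicate 1 and 24.6 in replicate 2. Mir376b and Mir376c summed to 320 ± 149 CPM, Mir453 and Mir496a to 191 ± 86.2 CPM with no read at Mir453, and Mir494 and Mir410 to 242 CPM in replicate 1 and 102 in replicate 2. Mir758 (7.56 and 4.73 CPM) and Mir1197 summed to 6.48 ± 1.52 CPM. In 4 of the 6 pairs 1 hairpin held nearly all reads: Mir379 over Mir1193, Mir496a over Mir453, Mir410 (159 ± 98.2 CPM) over Mir494 (12.5 ± 0.756 CPM) and Mir758 over Mir1197. Outside the pairs, miR-300-3p and miR-381-3p differ by G4A, U21G and C22U, with the first change in the seed.
miR-300-3p: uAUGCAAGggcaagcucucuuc
miR-381-3p: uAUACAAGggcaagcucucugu
Their hairpins had similar levels, 821 ± 257 CPM for Mir300 and 1023 ± 145 CPM for Mir381, but Mir300 was higher in replicate 1 (1003 against 639 CPM) and Mir381 in replicate 2 (1126 against 921 CPM).

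Levels did not rise or fall steadily along the cluster. Of the members, 25 lie before the annotated start of Mirg (chr12:109729764-109749460, plus strand, a long intergenic noncoding RNA) with no annotated host, and 14 lie within it. Within Mirg, Mir134, Mir485, Mir377 and Mir410 lie in exons. Mir453, Mir154, Mir496a, Mir541 and Mir409 lie in introns, and Mir382, Mir668, Mir412, Mir369 and Mir3072 span an exon edge. The median member before Mirg stood at 194 CPM and the median member within it at 704 CPM. The loci before Mirg held 60.1% of the cluster's reads in replicate 1 and 51.2% in replicate 2. Spearman's rho of level against distance from Mir379 was 0.06 over the 39 loci, which share both libraries. Neighbours differed by 3.97 on average in log2(mean CPM + 1), close to the 4.16 between any 2 members. Mir412, for example, lies between Mir409 and Mir369 and had 59.4 ± 7.44 CPM, against 958 ± 370 and 2324 ± 519 CPM for those neighbours. The gaps between hairpins ranged from 20 to 4368 nt, with a median of 556 nt.

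The reads lay on the plus strand. The minus strand carries an annotated miRNA gene opposite Mir299a (Mir299b), Mir380 (Gm25750), Mir376a (Gm25252), Mir539 (Gm44322) and Mir409 (Gm24321). None of these 5 minus-strand genes had a read of its own strand in either library, while the plus-strand partners summed to 3053 CPM in replicate 1 and 2761 CPM in replicate 2. Elsewhere in the cluster, reads of the opposite strand were seen at Mir376b (0 and 3 reads) and Mir485 (0 and 1 read). With both strands counted together, reads at these 5 overlaps are ambiguous and each of the 5 plus-strand members drops to 0 CPM.

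The distal cluster was set beside other clustered miRNA genes. There are 28 other miRNA genes between Dlk1 and Dio3 on either strand, including the 5 minus-strand partners above, and 17 of them (60.7%) had at least 10 reads in each library. Their median log2(mean CPM + 1) was 4.46, against 7.68 in the distal cluster, but this gap rests on which strand is compared. Without the 5 minus-strand partners the median was 7.60, with 17 of 23 loci (73.9%) at 10 reads. On the plus strand alone, the strand of the distal members, it was 8.48, with 16 of 20 loci (80.0%) at 10 reads against 34 of 39. Between the plus-strand sets, the median of the distal cluster was thus the lower one. These subsets were chosen after the values were seen. The 28 genes summed to 60095 ± 8513 CPM against 46274 ± 4790 CPM in the distal cluster, and of this Mir127, which lies antisense to Rtl1, alone had 28089 CPM in replicate 1 and 42028 in replicate 2. Mir433 (9847 ± 1537 CPM), Mir770 (6224 ± 173 CPM) and Mir434 (2170 ± 324 CPM) were next. The cluster in an intron of Sfmbt2 on chromosome 2, the other large imprinted miRNA cluster of mouse, had 8 of 119 loci (6.72%) with 10 reads in each library. It summed to 875 ± 179 CPM, led by Mir467d (343 ± 203 CPM), Mir669c (268 ± 18.7 CPM) and Mir467e (142 ± 24.7 CPM). Words of 20 bases that also occur in another annotated gene were found in 118 of these 119 loci, against 5 of 39 in the distal cluster and 5 of 28 in the rest of the domain. The part of this sharing in the low counts of the Sfmbt2 loci was not tested.

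**Figure D2:**
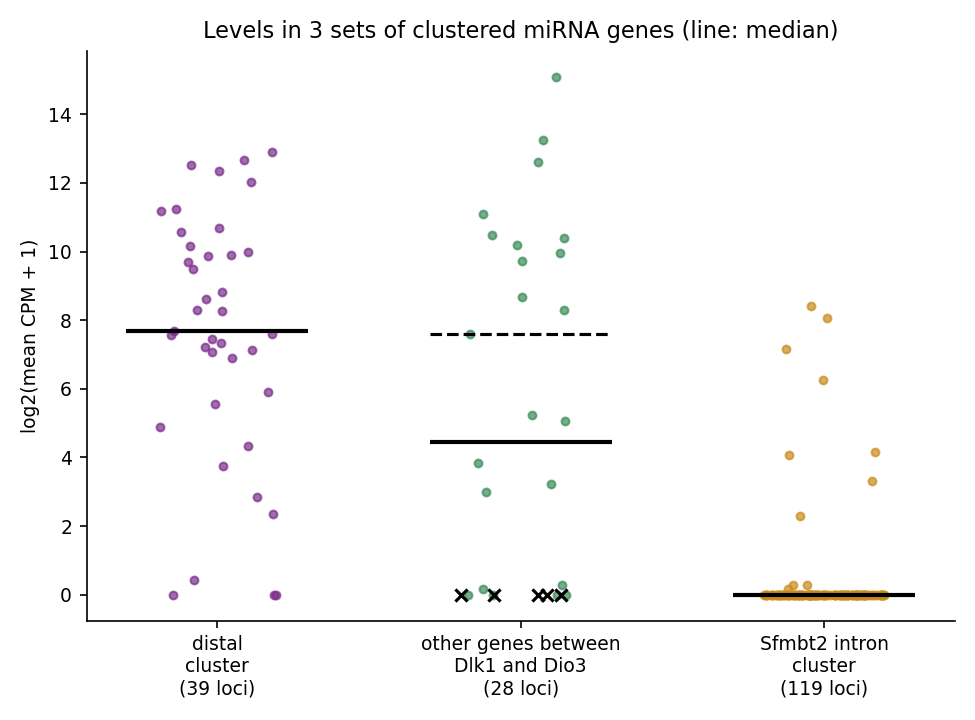
log2(mean CPM + 1) of every locus in the distal cluster, among the other miRNA genes between Dlk1 and Dio3 and in the Sfmbt2 intron cluster, with a solid line at the median of each set; crosses are the 5 minus-strand partners, and the dashed line is the median without them. The solid lines lie at 7.68, 4.46 and 0, the dashed line lies at 7.60, close to the distal median, and most Sfmbt2 loci have no read.

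The 2 libraries did not hold the cluster at the same level. In replicate 1 the distal cluster took 4.97% of sense miRNA reads, with an exact binomial 95% interval from 4.94 to 4.99. Its share in replicate 2 was 4.29% (4.27 to 4.31). The rest of the domain went the other way, with 5.41% (5.38 to 5.44) and 6.61% (6.59 to 6.63). Both sums rest on few loci. Without Mir411 and Mir379 the distal sums were 33763 and 32819 CPM in replicates 1 and 2. Without Mir127 the rest of the domain summed to 25986 and 24086 CPM, so that it too was higher in replicate 1.

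Single members differed in both directions. An exact binomial test that allows for counting noise only (two-sided, adjusted over all 472 miRNA genes with 10 or more reads) called 27 of 35 tested members, or 77.1%, where 52.1% of all tested genes were called. Members had a median of 2325 reads over both libraries against 213 for other tested genes, and deeper loci pass at smaller differences. Higher in replicate 1 were 12 members (34.3%, against 24.6% of all tested genes), and higher in replicate 2 were 15 (42.9%, against 27.5%). A difference of 2-fold or more was seen at 6 members (17.1%), against 15.7% of all tested genes. When the spread between the libraries is taken into the test (edgeR's exact test, with 1 dispersion for all genes estimated from the same 2 libraries), none of the 35 passed (0.424% of all genes did), and 1, Mir376c, had an unadjusted p below the threshold of 0.05 (5.93% of all genes did). The median log2 ratio of the members, replicate 1 over replicate 2, was -0.16 (quartiles -0.62 and 0.63), against -0.07 (-0.43 and 0.41) over all tested genes.

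Among binomially called members averaging 100 CPM or more, the largest differences toward replicate 1 were at Mir376c, Mir410, Mir380, Mir495 and Mir496a. Mir376c had 270 and 75.5 CPM in replicates 1 and 2. Because Mir376c shares sequence with Mir376b, reads that map to several places can be missing from its counts. Over the whole library such reads made up 35.6% and 44.8% of all reads, but 1.20 and 1.24 per sense miRNA read. Mir376b had a log2 ratio of 0.19 ± 0.09 and did not pass the binomial test. Whether such reads had a part in the difference at Mir376c was not tested. Its log2 ratio was 1.85 ± 0.10 (SE from counting noise; exact binomial adjusted p = 1.13e-86; edgeR exact test adjusted p = 0.694). Mir410 had 229 and 89.9 CPM (log2 ratio 1.37 ± 0.10), and Mir380 had 277 and 112 CPM (1.33 ± 0.09). Mir495 had 186 and 92.0 CPM (1.03 ± 0.10), and Mir496a had 252 and 129.6 CPM (0.98 ± 0.08). All 5 are members of low or middle abundance, at 139 to 194 CPM on average. Toward replicate 2, under the same limits, the largest were at Mir666, Mir3072, Mir409, Mir299a and Mir667. Mir666 had 194 and 420.2 CPM, and its log2 ratio was -1.09 ± 0.08 (exact binomial adjusted p = 7.53e-54; edgeR exact test adjusted p = 1). Mir3072 had 84.4 and 181 CPM (-1.06 ± 0.11). For Mir409 the ratio was -0.78 ± 0.04. Mir299a had 152 and 256 CPM (-0.73 ± 0.09), and Mir667 had 548 and 903 CPM (-0.69 ± 0.05). Each of these 10 differences passed the test against counting noise, and none passed the edgeR test. The edgeR test takes its spread from the difference between these same 2 libraries, so few calls are built into it. It therefore cannot decide about single members.

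**Figure D3:**
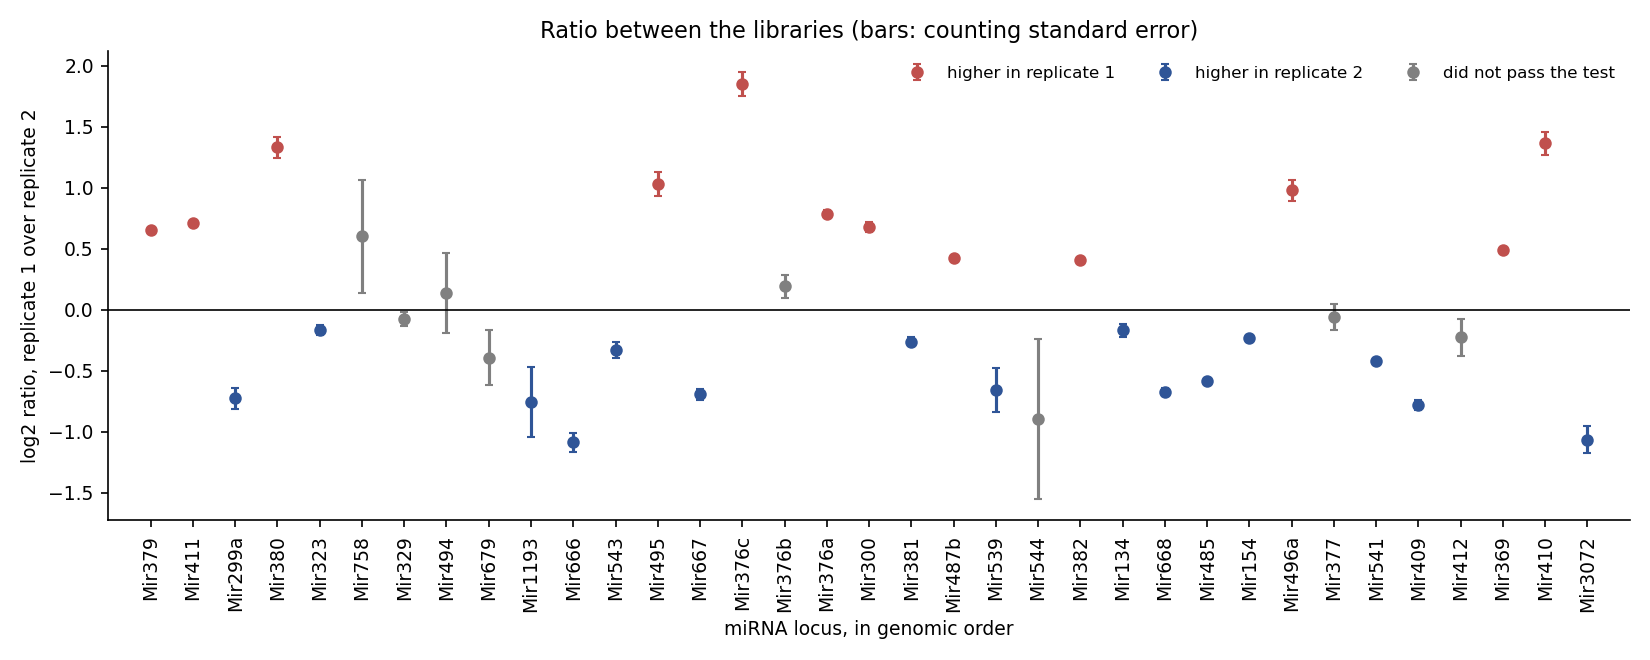
log2 ratio of replicate 1 over replicate 2 for the 35 tested members in genomic order, with bars for the counting standard error; colours give the exact binomial call. Mir376c is highest at 1.85 and Mir666 lowest at -1.09, and loci of opposite direction lie next to each other.

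Among the members, the ratio between the libraries moved with base composition, a relation looked for after the ratios were seen. Hairpin GC content ranged from 29.1% (Mir376c) to 72.3% (Mir3072). The 12 members higher in replicate 1 had a median hairpin GC of 41.3% and a highest value of 47.6%. The 15 members higher in replicate 2 had a median of 51.2% and ranged from 33.8% (Mir539) to 72.3%. Of the 10 members of highest GC (51.2% or more), 8 were higher in replicate 2, 0 in replicate 1 and 2 did not pass. Of the 11 members of lowest GC (40.9% or less), 6 were higher in replicate 1 and 3 in replicate 2. Spearman's rho of log2 ratio against hairpin GC was -0.54 over the 35 members, which share both libraries, and -0.58 without the members that share sequence. Over the 437 tested genes outside the cluster it was -0.30. At the members' high GC cutoff, 76 of 260 outside genes were higher in replicate 2 and 39 in replicate 1. At the low cutoff, 18 of 42 were higher in replicate 1 and 6 in replicate 2. Outside genes had fewer reads (median 213 against 2325), so neither these counts nor the rho values compare the sets at like depth. The median log2 ratio at low GC was 0.409 in the members and 0.395 outside. At high GC it was -0.68 in the members and -0.17 outside. The libraries also differed in depth and in unmapped reads (30.8% in replicate 1, 14.6% in replicate 2). The part of base composition in the ratios was not tested beyond these values.

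The strands below were chosen to show the contrast, with 1 strand per member and the seed in capitals. Members higher in replicate 1 come first, then members higher in replicate 2. Left out are members that go the other way, among them Mir539 and the others of the 3 low-GC members higher in replicate 2.
miR-376c-5p: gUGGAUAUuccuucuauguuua
miR-495-3p: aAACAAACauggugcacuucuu
miR-410-3p: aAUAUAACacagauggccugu
miR-666-5p: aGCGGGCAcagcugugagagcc
miR-667-3p: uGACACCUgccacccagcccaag
miR-3072-5p: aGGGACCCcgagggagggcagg
The GC content of these strands is 31.8% for miR-376c-5p, 36.4% for miR-495-3p and 38.1% for miR-410-3p, against 68.2% for miR-666-5p, 65.2% for miR-667-3p and 77.3% for miR-3072-5p. The other listed strands of these members stood at 39.1% (miR-495-5p), 47.6% (miR-410-5p), 68.2% (miR-666-3p), 68.0% (miR-667-5p) and 63.6% (miR-3072-3p), and the counts do not separate the strands. With the GC of the listed mature strands in place of the hairpin, the rho was again -0.54. Level itself did not follow GC among the members (rho 0.003, n = 35).

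**Figure D4:**
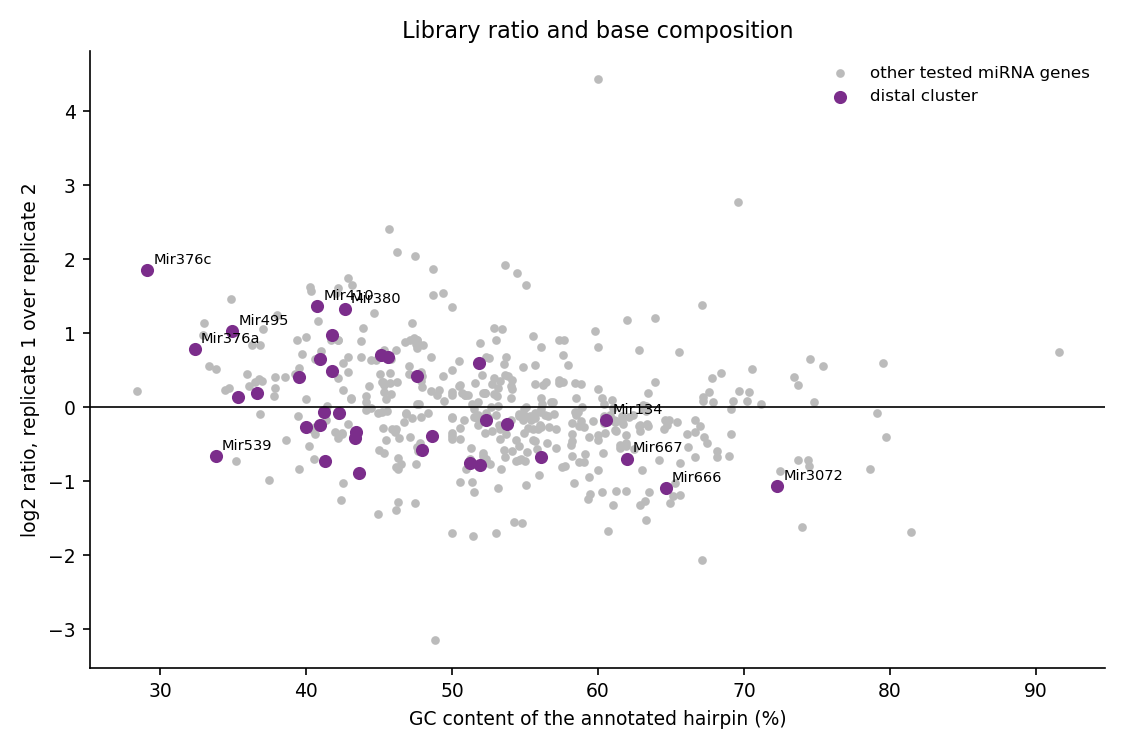
log2 ratio of replicate 1 over replicate 2 against hairpin GC content (%), for the 35 tested members (purple) and the 437 other tested miRNA genes (grey). Mir376c lies at the upper left, and Mir666 and Mir3072 lie at the lower right.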

How the data were processed

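The authors deposited 1 table per library, with unnormalized whole-number read counts for each miRNA gene in 3 columns (both strands, sense, antisense) under 4 summary lines. The build is mm10 and the annotation GENCODE M21, per the notes deposited beside the tables. For aligner and trimming, nothing is given in the sources used here. The sense counts were used, and the summary lines stayed out of library sizes. CPM scales reads to the total of sense miRNA reads, with a pseudocount of 1 CPM on the log2 scale. Ratios used TMM sizes (edgeR 4.0.16, R 4.3.3). With 1 group no quasi-likelihood test exists, so the libraries were compared by an exact binomial test (scipy 1.17.1) with Benjamini-Hochberg adjustment at 0.05. The test was tried only on counts simulated with counting noise alone, the noise it assumes. That trial says nothing about its error rate where libraries differ by more than counting noise. Words of 20 bases were searched in annotated transcripts that do not overlap the hairpin, and listed mature strands with up to 1 mismatch in the other annotated miRNA hairpins. DESeq2 1.42.0 gave alternative size factors. Named with values are the 12 members of highest mean CPM, members with a shared seed, up to 5 per direction with the largest ratio and at least 100 CPM, members without reads or with opposite-strand reads, Mir134 and Mir485, and 4 and 3 loci of the other sets; further members are named beside them, chosen after their values were seen. Members and lists were chosen with earlier results of these data known. Intervals cover counting error only, since PCR reads are not independent molecules.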

Additional observations from a re-analysis of the deposited data

How the results depend on the processing

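No paired analysis was possible because there is only 1 group. The summed level of the cluster (46274 CPM) moved to 41000 CPM with no-feature reads in the library total and to 32297 CPM without the members that share sequence, and stood between 42887 and 49661 CPM when either replicate was left out. Members past the binomial test numbered 22 to 28 under the other size factors, read minimums and strand counts tried, and 0 with edgeR's exact test. The median log2 ratio was -0.0893 with RLE size factors, against -0.16. The median log2(mean CPM + 1) of 7.68 was between 8.01 and 8.08 in single libraries, where the middle locus differs. Members that share sequence numbered 17 with words of 18 bases and 2 with words of 22 bases, against 5. The mean difference of neighbours was 3.16 without loci lacking reads, and 4.02 to 4.06 in single libraries. With both strands counted together, 24 of 30 named loci stayed within the replicate spread and 6 moved. For a mean or sum over the 2 libraries, leaving out 1 always leaves a value inside their SD and says nothing about stability. Single-library levels lay over 1.5 times from the mean at 7 of 27 named loci with reads (Mir380, Mir1197, Mir666, Mir495, Mir376c, Mir410 and Mir3072). The median of the other genes of the domain was 4.46, 7.60 without the minus-strand partners and 8.48 on the plus strand only, both chosen after seeing the data. The rho of ratio against GC was -0.63 over the 28 members with 500 or more reads, a minimum chosen after seeing the data. The library comparison has no value without either replicate. Members under about 10 reads cannot be ordered at this depth.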
